A study of Danio rerio with 6 samples.

Results

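Forkhead (Fox) and Sox genes encode transcription factors, and zebrafish (Danio rerio) carry many members of both families, often as a pair of copies left by the duplication of the teleost genome. The genes described here are those whose symbol is sox followed by a number and an optional copy letter, or fox followed by a class letter from a to r and a number. There were 79 of them among 24789 genes, 23 Sox and 56 Fox. Symbols came from a table of Ensembl gene IDs in which some zebrafish genes carry the human name in capitals. Where both copies share a name they are told apart by their ID, as in SOX11 (ENSDARG00000095743).

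Sox proteins bind the minor groove of DNA through a high mobility group box and bend it, and they act with partner proteins such as POU factors. Their groups are tied to tissues: SoxB1 to neural progenitors, SoxC to young neurons, SoxD to muscle and cartilage, SoxE to neural crest and cartilage, and SoxF to blood vessels. Fox proteins bind through a winged helix domain. Among them FoxA members act in endoderm, floor plate and notochord, FoxC in paraxial mesoderm, FoxD3 in neural crest, FoxM1 in dividing cells and FoxO under insulin signalling, which through Akt keeps FoxO proteins out of the nucleus.

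Messenger RNA was sequenced from embryo trunks 24 to 26 h after fertilization, dissected free of head and yolk, in 3 libraries per group. Loss of function embryos were qkia-/- and received 0.6 pmol of qkic morpholino, an antisense oligonucleotide that blocks a transcript's splicing or translation. Control embryos were their qkia+/+ or qkia+/- siblings with 0.6 pmol of control morpholino. All came from crosses of qkia+/- fish and were sorted by morphology, so genotype, morpholino and morphology changed together, and controls could carry 1 mutant copy. The number of embryos per library is not given. The qkia and qkic genes encode Quaking proteins, which bind RNA, and the series set out to find their target genes.

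The normalized values summed to between 43261678 and 44672244 in loss of function libraries and between 38854614 and 40728502 in control libraries. Values are normalized reads, a gene's read count divided by the size factor of its library. They are not divided by transcript length, so levels of different genes are not compared. The mutated gene, qkia (ENSDARG00000097478), had 5.98, 6.93 and 3.34 in loss of function trunks, against 61.7, 81.9 and 58.9 in controls, and ENSDARG00000010018, 1 of the 2 genes named QKI, had 319, 355 and 318 in loss of function trunks, against 629, 682 and 601 in controls. The other, ENSDARG00000002026, had 34.9, 48.5 and 42.4 in loss of function trunks, against 36.1, 42.4 and 36.5 in controls (log2 change 0.12, limma adjusted p = 0.684). Neither QKI gene is matched to qkic here, and a morpholino need not lower the level of its transcript. Among markers of other cell types, those of leukocytes gave 2 lower of 4, pronephros 2 higher and 2 lower of 7, gut and yolk 1 higher and 1 lower of 2, and endothelium 1 higher and 1 lower of 3. Of all genes tested, 21.9% were higher and 20.0% lower. In RNA from whole trunks, fewer cells of a type and less RNA per cell cannot be told apart.

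Of the Fox and Sox genes tested, 57 changed by less than 0.5 on the log2 scale, and more of those that passed the test were lower than higher. Of the 79 genes, 67 had at least 10 normalized reads in at least 3 of the 6 libraries and were tested, among them all 23 Sox genes and 44 of the 56 Fox genes. At a limma adjusted p under 0.05, 6 were higher and 17 lower in loss of function trunks, together 23 (34.3%). Over all 18917 genes tested, 41.9% passed, 21.9% higher and 20.0% lower. Among the members 8.96% were higher and 25.4% lower. The Sox genes gave 3 higher and 7 lower of 23, and the Fox genes 3 higher and 10 lower of 44. The groups of 3 libraries did not overlap for 30 members (44.8%), of which 23 passed the test, and for 52.1% of all genes tested.

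The median log2 change was -0.10 over the tested members and 0.00048 over all genes tested, and the members ranged from -1.26 to 0.72. A change of at least 0.5 in size on the log2 scale was found in 10 members (14.9%) and in 16.8% of all genes tested. Among members with a mean of at least 1000 normalized reads, 9 of 22 passed (40.9%), beside 60.5% of all genes in that range. With a mean from 100 to 1000 it was 8 of 24 (33.3%) beside 44.6%, and under 100 it was 6 of 21 (28.6%) beside 21.02%. The median SE of the log2 change was 0.05 in the first range and 0.26 in the last, so changes of rarely sequenced members were measured less closely. Leaving out 1 loss of function library moved the count of lower members to 11 (replicate 1), 8 (replicate 2) or 9 (replicate 3) of 67. Of all 18917 genes, 2968, 3054 and 3076 were then lower. Without replicate 2 or 3 a smaller share of members than of all genes was lower, and without replicate 1 a slightly larger one. The counts of higher members were 3, 6 and 4 in the same order, and those of all genes 3142, 3342 and 3350.

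**Figure D1:**
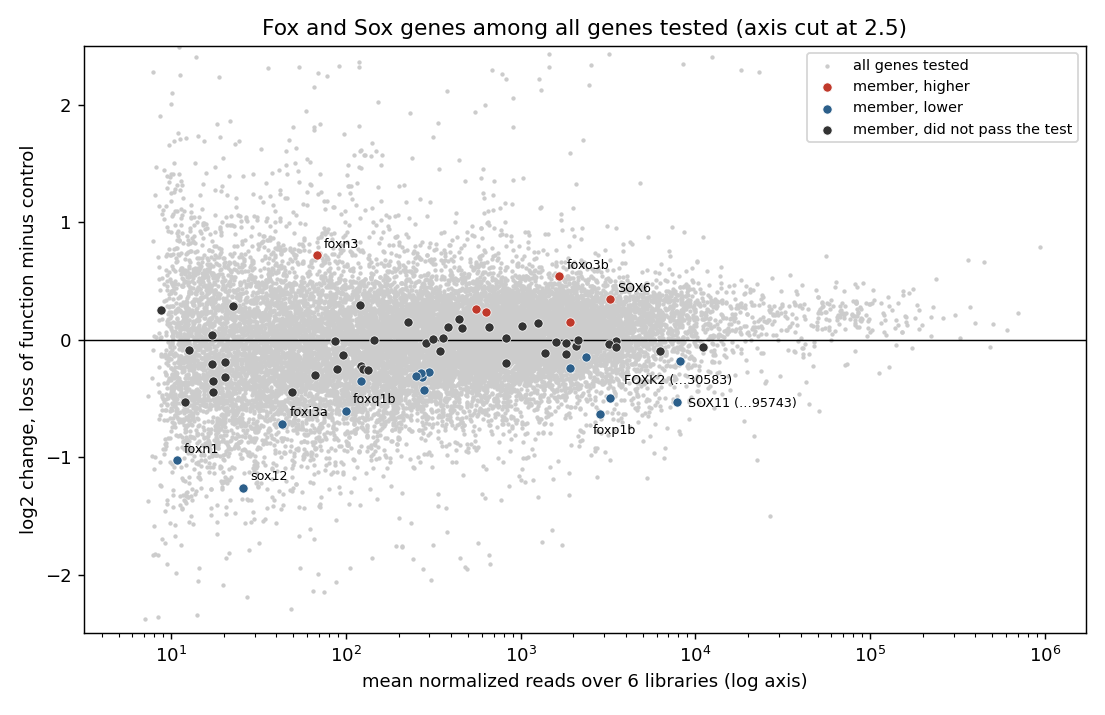
Log2 change between loss of function and control trunks (vertical axis, no unit) against the mean normalized reads of a gene over the 6 libraries (horizontal log axis), for all genes tested in grey and for all but 1 of the tested Fox and Sox genes in red (higher), blue (lower) or black (did not pass the test). Genes with changes beyond 2.5 in size are not drawn, and shortened IDs stand for the last 5 digits of the Ensembl ID. Members lie within the range of the other genes, from -1.26 for sox12 to 0.72 for foxn3.

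Of 6 SoxB1 genes, which hold neural progenitors in an undifferentiated state, 1 rose, 1 fell and 4 did not pass the test. Shares over all genes tested were 21.9% higher and 20.0% lower. The gene sox19a had 10884, 10631 and 10799 in loss of function trunks, against 10525, 11764 and 11576 in controls (log2 change -0.07, 95% interval -0.18 to 0.04, limma adjusted p = 0.326). Its copy sox19b had 3522, 3413 and 3512 in loss of function trunks, against 3191, 3738 and 3640.4 in controls (log2 change -0.01, 95% interval -0.14 to 0.11, limma adjusted p = 0.873), and SOX2 had 3354, 3041 and 3088 in loss of function trunks, against 2945, 3517 and 3269 in controls (log2 change -0.03, 95% interval -0.17 to 0.10, limma adjusted p = 0.689). In all of these the libraries of both groups overlapped. SOX3 fell, with 7610.3, 7741 and 7709 in loss of function trunks, against 7903, 9306 and 8973 in controls (log2 change -0.18, SE 0.06, limma adjusted p = 0.0174). The lowest control value of SOX3 lay just above the highest loss of function value. One of the genes named SOX1 (ENSDARG00000008131) was higher, with 638, 562 and 624 in loss of function trunks, against 472, 523 and 524 in controls (log2 change 0.26, SE 0.08, limma adjusted p = 0.00976). The other copy, ENSDARG00000069866, ranged over 304 to 325 in loss of function and 284 to 360.2 in controls and overlapped (log2 change 0.00, 95% interval -0.20 to 0.21, limma adjusted p = 0.976). SOX3 did not pass without an intensity trend, without loss of function replicate 1, 2 or 3, or without control replicate 2 (adjusted p from 0.0554 to 0.117). SOX1 (ENSDARG00000008131) did not pass without loss of function replicate 1 (adjusted p = 0.0651). For sox19a the test was passed after quantile normalization (adjusted p = 0.00598).

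SoxB2 genes, which oppose SoxB1 and promote neuronal differentiation, moved both ways. SOX14, found in spinal interneurons, fell, with 238, 228 and 208 in loss of function trunks, against 247, 308 and 284 in controls (log2 change -0.31, SE 0.10, limma adjusted p = 0.0235). The copy sox21a was higher in every loss of function library, at 2134, 1962 and 1979 in loss of function trunks, against 1769, 1861 and 1832 in controls (log2 change 0.15, SE 0.05, limma adjusted p = 0.0298). SOX21 itself ranged over 718 to 797 in loss of function and 759.7 to 968 in controls, with overlap (log2 change -0.20, 95% interval -0.37 to -0.03, limma adjusted p = 0.0602). SOX14 did not pass after quantile normalization, without an intensity trend, without loss of function replicate 2 or 3, or without control replicate 2 (adjusted p from 0.0562 to 0.107). The gene sox21a did not pass after quantile normalization, without an intensity trend, without loss of function replicate 1, 2 or 3, or without control replicate 1 (adjusted p from 0.0529 to 0.182). SOX21 passed after quantile normalization and without control replicate 1 (adjusted p from 0.00350 to 0.0481).

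Genes that work beside SoxB1 in neural progenitors were counted in a list of 21 POU, Zic, Notch, Hes and progenitor genes, all tested. Of these 12 fell, 2 rose and 7 did not pass, with a median log2 change of -0.19. Over all genes tested, 20.0% were lower and 21.9% higher. The Notch receptor gene NOTCH3 had 3377 ± 57.1 in loss of function and 4513 ± 273 in controls (SD, n = 3 each; log2 change -0.42, limma adjusted p = 1.02e-05). The gene NOTCH1 (ENSDARG00000052094) had a log2 change of -0.39, and the POU factor genes pou3f3b and pou3f1 -0.36 and -0.30. HES6 (ENSDARG00000007097, -0.50), nes (-0.41), GFAP (-0.31) and both genes named ZIC2 (-0.19 and -0.20) also fell. The 2 that rose were both genes named FABP7, which encode a fatty acid binding protein of radial glia. FABP7 (ENSDARG00000007697) had 2785 ± 170.0 in loss of function and 1782 ± 229.7 in controls (log2 change 0.65, limma adjusted p = 4.27e-06), and ENSDARG00000034650 had a log2 change of 1.57. Neuron markers, 4 of 8 lower and 0 higher, summed to 16055 to 16557 in loss of function and 17433 to 18221 in controls, and their part in these changes was not tested.

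Of the SoxC genes, which drive the maturation of committed neural cells, 2 of 5 fell and 0 rose. Shares of all genes tested were 20.0% lower and 21.9% higher. SOX11 (ENSDARG00000095743) had 6316, 6639 and 6303 in loss of function trunks, against 8483, 10515 and 8946 in controls, means of 6419 ± 190.0 in loss of function and 9315 ± 1065 in controls (SD, n = 3 each; log2 change -0.53, SE 0.06, limma adjusted p = 7.59e-06). All 3 loss of function libraries lay within a narrow range, well below the lowest control. Its copy SOX11 (ENSDARG00000077811) had 6083, 5952 and 5999 in loss of function trunks, against 6101, 6741 and 6504 in controls, where the groups were separated by a small gap (log2 change -0.10, 95% interval -0.20 to 0.00, limma adjusted p = 0.116). The ratio of the first copy to the second was 1.038, 1.115 and 1.051 in loss of function trunks, against 1.390, 1.560 and 1.375 in controls. The member with the largest change was sox12 (ENSDARG00000025847), at 16.95, 12.9 and 14.5 in loss of function trunks, against 38.8, 33.5 and 37.6 in controls (log2 change -1.26, SE 0.25, limma adjusted p = 6.48e-04). This gene had few reads, and its groups did not overlap. SOX4 ranged over 1766 to 1822 in loss of function and 1746 to 1916 in controls (log2 change -0.03, 95% interval -0.15 to 0.08, limma adjusted p = 0.657), and sox4a over 115 to 129 in loss of function and 140.1 to 151 in controls, without overlap (log2 change -0.26, 95% interval -0.51 to -0.01, limma adjusted p = 0.0902). SOX11 (ENSDARG00000077811) passed after quantile normalization and without control replicate 1 (adjusted p from 0.00368 to 0.0258). The gene sox4a passed without an intensity trend (adjusted p = 0.0315).

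SoxD genes gave 1 higher and 1 lower of 3, beside 21.9% higher and 20.0% lower over all genes tested. SOX6 (ENSDARG00000015536), which in zebrafish fast muscle represses slow fibre genes, was higher, with 3510.0, 3740.1 and 3620.0 in loss of function trunks, against 3079, 2691 and 2812 in controls, means of 3623 ± 115 in loss of function and 2861 ± 198 in controls (SD, n = 3 each; log2 change 0.34, SE 0.06, limma adjusted p = 1.10e-04). The lowest loss of function library of SOX6 exceeded the highest control. In the same libraries PROX1, a transcription factor of slow fibres, had 330.2 ± 22.4 in loss of function and 501 ± 38.1 in controls (log2 change -0.60, limma adjusted p = 2.87e-05). PROX1 is 1 of 8 skeletal muscle markers and was named after its value was seen. Of the 8 markers 2 were higher and 4 lower. MYOG (0.37) and ACTA1 (ENSDARG00000055618, 0.31) rose, while both genes named TNNT3 (-0.21 and -0.61), ACTA1 (ENSDARG00000036371, -0.36) and PROX1 fell. The summed level of the 8 was 498540.5 to 515041 in loss of function and 437606 to 547639.5 in controls, with overlap. Any link of PROX1 or the other markers to the change of SOX6 was not tested. The gene sox13 (ENSDARG00000030297) fell, with 221, 256 and 237 in loss of function trunks, against 335, 292 and 337 in controls (log2 change -0.43, SE 0.10, limma adjusted p = 0.00183). SOX5 ranged over 1695 to 1768 in loss of function and 1747 to 1974 in controls (log2 change -0.13, 95% interval -0.25 to -0.01, limma adjusted p = 0.0870). SOX5 passed after quantile normalization and without control replicate 2 (adjusted p from 0.00969 to 0.0234).

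SoxE genes are regulators of neural crest, pigment cells, glia and cartilage, and FOXD3 specifies the crest. SOX10 had 1334, 1291 and 1328 in loss of function trunks, against 1169.6, 1145 and 1282 in controls, all loss of function values above all controls, but it did not pass the test (log2 change 0.14, 95% interval 0.01 to 0.26, limma adjusted p = 0.0697). FOXD3 had 1367, 1343 and 1239 in loss of function trunks, against 1524, 1330.1 and 1428 in controls, with overlap (log2 change -0.12, 95% interval -0.25 to 0.02, limma adjusted p = 0.151). Both genes named SOX9 fell. SOX9 (ENSDARG00000043923) had 2316, 2220.5 and 2204 in loss of function trunks, against 2433, 2618 and 2425 in controls (log2 change -0.15, SE 0.05, limma adjusted p = 0.0294). SOX9 (ENSDARG00000003293) had 262, 270.3 and 273 in loss of function trunks, against 368, 291 and 322 in controls (log2 change -0.28, SE 0.10, limma adjusted p = 0.0289). Gaps between the groups were small for both copies. SOX8 stayed between 10.9 and 22.9 normalized reads in all libraries (log2 change -0.21, 95% interval -0.90 to 0.48, limma adjusted p = 0.635). SOX9 (ENSDARG00000043923) did not pass without an intensity trend, without loss of function replicate 1, 2 or 3, or without control replicate 2 (adjusted p from 0.0519 to 0.119). SOX9 (ENSDARG00000003293) did not pass after quantile normalization, without an intensity trend, without loss of function replicate 1, 2 or 3, or without control replicate 1 (adjusted p from 0.0608 to 0.135). SOX10 passed without control replicate 3 (adjusted p = 0.0102). FOXD3 passed without control replicate 2 (adjusted p = 0.0395).

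Of 21 tested genes of a neural crest list that excludes Sox and Fox genes, 12 fell, 1 rose and 8 did not pass (median log2 change -0.32). Beside these counts stand 20.0% lower and 21.9% higher over all genes tested. PAX3 (ENSDARG00000010192), a regulator of neural crest and muscle precursors, had 477 ± 11.5 in loss of function and 659 ± 9.17 in controls (SD, n = 3 each; log2 change -0.47, limma adjusted p = 3.71e-05). TYRP1 (ENSDARG00000056151), a melanin synthesis gene, had a log2 change of -0.57. The gene that rose was the endothelin receptor gene ednrab, with 1484 ± 149 in loss of function and 886 ± 103 in controls (log2 change 0.75, limma adjusted p = 2.53e-06). Of 4 tested neural crest and pigment markers 3 were lower and 0 higher. With the untested one, the markers summed to 3029 to 3126 in loss of function and 3404 to 4036 in controls. Among these markers MITF, DCT and TYR are also in the neural crest list, so they are not a separate measure. Their part in the values of SOX9, SOX10 and FOXD3 was not tested.

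Around Sox5, Sox6, Sox9 and Foxc, 19 cartilage, sclerotome and somite genes were tested, of which 7 rose, 4 fell and 8 did not pass (median 0.03). The shares over all genes tested were 21.9% higher and 20.0% lower. The collagen genes COL9A2 (0.35) and col9a3 (0.29), the matrix gene SPARC (0.31) and ripply1, which acts in somite formation (0.43), rose. The genes that fell were twist3 (-0.60), PAX1 (ENSDARG00000008203, -0.72), twist1a (-0.23) and MEOX1 (-0.15). PAX1, which marks sclerotome, had 37.5 ± 6.95 in loss of function and 62.2 ± 7.90 in controls (SD, n = 3 each; limma adjusted p = 0.00800).

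The SoxF genes of blood vessel cells showed no change that passed the test. SOX7 had 429.8, 494 and 482 in loss of function trunks, against 362, 422 and 464 in controls (log2 change 0.18, 95% interval -0.02 to 0.37, limma adjusted p = 0.142), and sox18 had 147, 148 and 136 in loss of function trunks, against 167, 131 and 135 in controls (log2 change -0.00, 95% interval -0.27 to 0.26, limma adjusted p = 0.982), with overlap in both. SOX7 passed without control replicate 3 (adjusted p = 0.0276). Among 17 tested endothelial genes 5 rose and 4 fell (median 0.18), beside 21.9% higher and 20.0% lower over all genes tested. This list includes cdh5, FLI1 and TIE1, which were also counted as endothelium markers. The genes that rose were LMO2 (1.35), cdh5 (1.31), TAL1 (0.90), lyve1b (0.50) and she (0.19), of which LMO2 and TAL1 also act in blood progenitors. Those that fell were tek (-0.69), flt1 (-0.61), dll4 (-0.38) and FLI1 (-0.27). The gene cdh5, which encodes the cadherin of endothelial junctions, had 154 ± 30.7 in loss of function and 60.7 ± 5.16 in controls (SD, n = 3 each; limma adjusted p = 7.91e-06). Erythroid markers, 6 of 7 higher, summed to 49471 to 50822 in loss of function and 5782 to 16769.8 in controls in the same libraries, and their part was not tested.

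**Figure D2:**
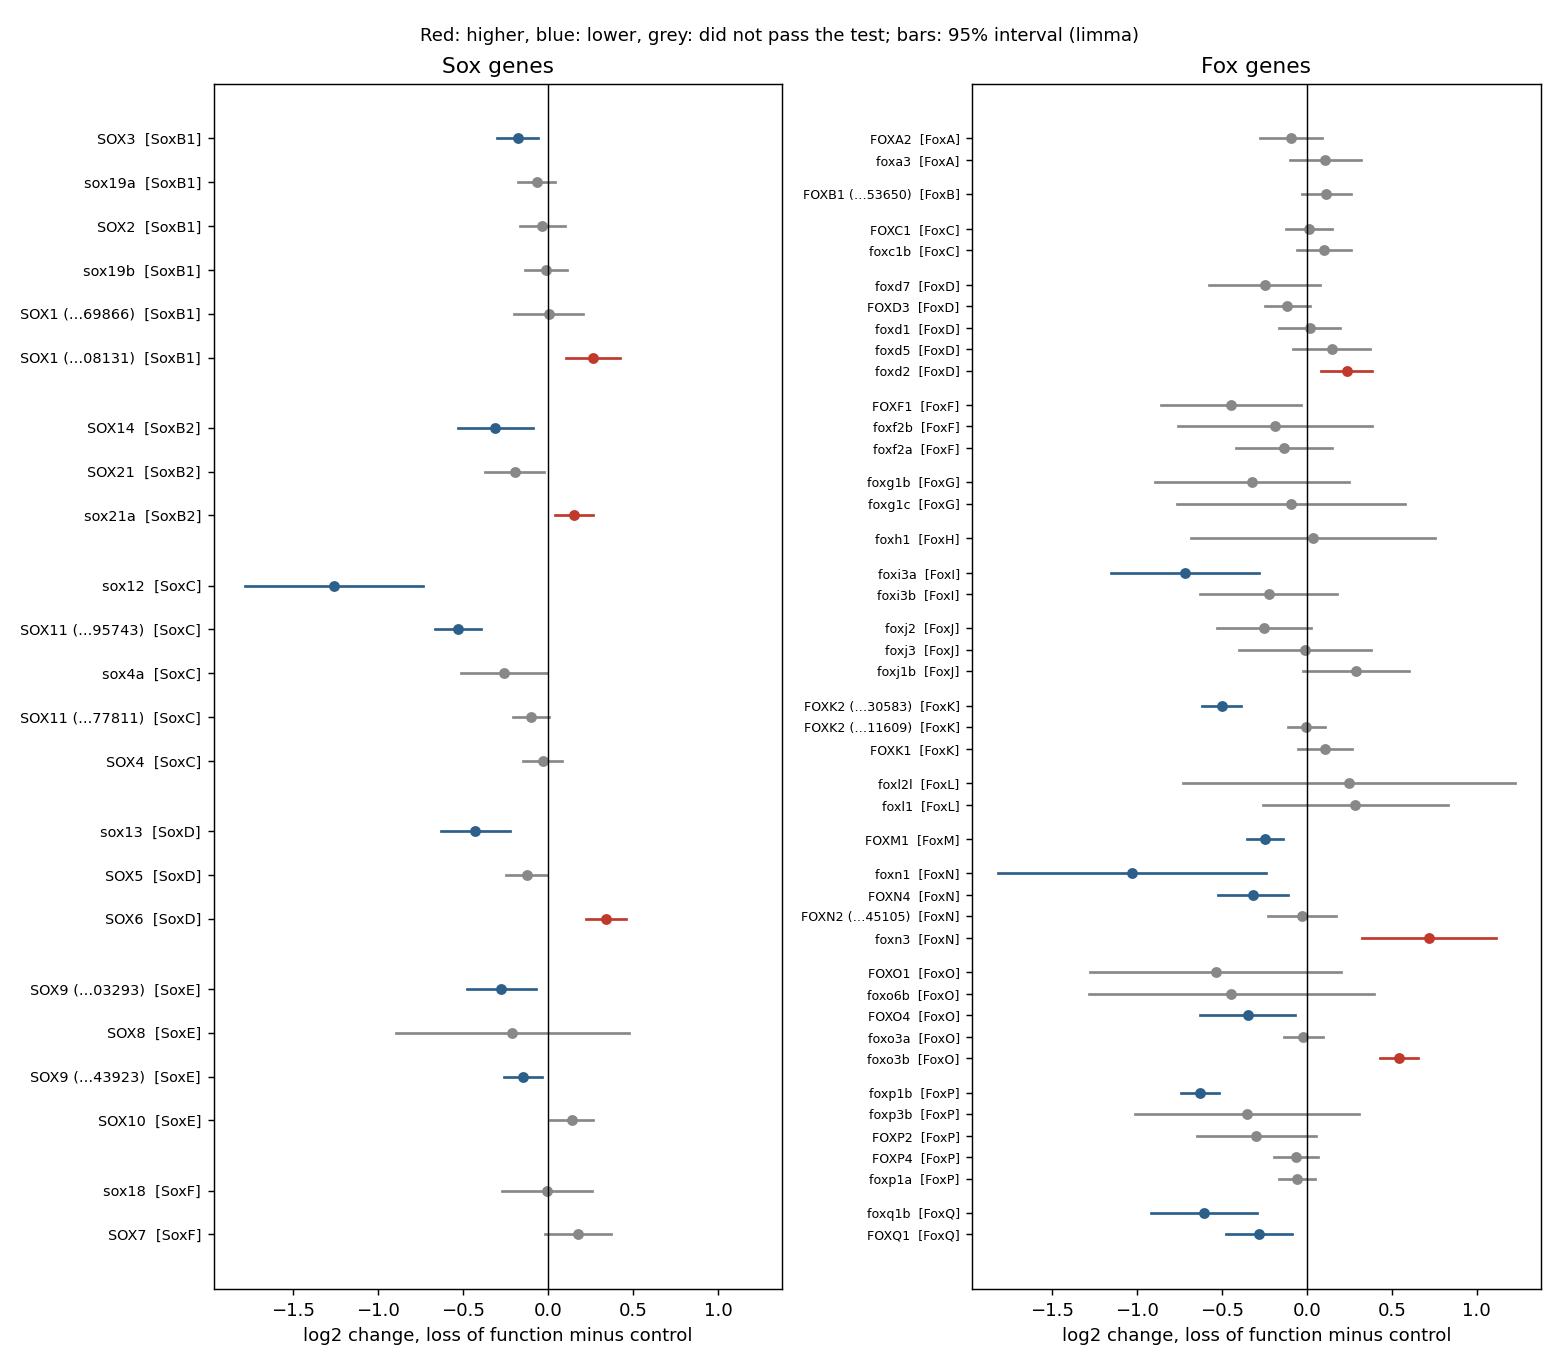
Log2 change with its 95% interval from limma (horizontal axis, no unit) for the tested Sox genes (left) and all tested Fox genes but 1 (right), grouped by class in brackets. Red genes were higher, blue genes lower, and grey genes did not pass the test. The widest intervals belong to rarely sequenced members such as foxl2l and foxo6b.

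None of the tested genes of classes FoxA (2), FoxB (1), FoxC (2) and FoxF (3) passed the test. Over all genes tested 41.9% passed, but classes put together because they had 0 calls cannot be compared with that share. FOXA2, a gene of the floor plate, notochord and endoderm, had 313, 346 and 346 in loss of function trunks, against 351, 383 and 339 in controls (log2 change -0.09, 95% interval -0.27 to 0.09, limma adjusted p = 0.406). The endoderm gene foxa3 had 436, 383 and 368 in loss of function trunks, against 326, 357 and 420.2 in controls (log2 change 0.11, 95% interval -0.10 to 0.32, limma adjusted p = 0.398), and FOXB1 (ENSDARG00000053650), expressed in the neural tube, had 1031, 1054 and 1097 in loss of function trunks, against 882, 1016 and 1044 in controls (log2 change 0.12, 95% interval -0.03 to 0.26, limma adjusted p = 0.184). The somite gene FOXC1 had 813, 866 and 793 in loss of function trunks, against 797, 794 and 858 in controls (log2 change 0.01, 95% interval -0.12 to 0.15, limma adjusted p = 0.887), and foxc1b had 451, 499 and 484 in loss of function trunks, against 429, 455 and 451 in controls (log2 change 0.10, 95% interval -0.06 to 0.26, limma adjusted p = 0.293). In all of these the groups overlapped. FOXF1, a gene of gut mesenchyme, had 32.9, 46.5 and 45.7 in loss of function trunks, against 53.8, 57.2 and 58.9 in controls, without overlap, and did not pass (log2 change -0.45, 95% interval -0.86 to -0.04, limma adjusted p = 0.0754). The gene foxf2a had 89.7, 95.04 and 91.4 in loss of function trunks, against 101, 103 and 99.5 in controls, also without overlap (log2 change -0.13, 95% interval -0.42 to 0.15, limma adjusted p = 0.444), and foxf2b ranged over 16.7 to 23.9 in loss of function and 19.7 to 23.3 in controls (log2 change -0.19, 95% interval -0.76 to 0.38, limma adjusted p = 0.609).

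Around FoxA, a list of 19 floor plate and notochord genes gave 6 higher and 3 lower (median 0.08). Over all genes tested, 21.9% were higher and 20.0% lower. SULF1, which edits heparan sulfate, had 6355 ± 118 in loss of function and 4223 ± 105 in controls (SD, n = 3 each; log2 change 0.59, limma adjusted p = 7.46e-08). The hedgehog ligand gene SHH (ENSDARG00000068567) had a log2 change of 0.31 (limma adjusted p = 2.09e-04), COL2A1 (ENSDARG00000069093) of 0.45, CALU of 0.32 and the notochord factor noto of 0.72. Among the genes that fell were nkx2.9 (-0.31) and COL2A1 (ENSDARG00000011407, -0.17). The 6 notochord markers, of which 3 were higher and 1 lower, summed to 126871 to 129258 in loss of function and 99225 to 105979 in controls. All 6 are also in the list of 19, so they are not a separate measure. Most of the sum came from COL2A1 (ENSDARG00000069093), with means of 96997 in loss of function and 70961 in controls.

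In class FoxD, foxd2 was higher, at 684, 674 and 686 in loss of function trunks, against 556, 549.6 and 634 in controls (log2 change 0.23, SE 0.07, limma adjusted p = 0.0139). It did not pass without an intensity trend, or without loss of function replicate 1 or 3 (adjusted p from 0.0519 to 0.0542). The log2 changes of foxd5 (0.15), foxd1 (0.02) and foxd7 (-0.25) did not pass the test. In class FoxG, foxg1b (-0.32) and foxg1c (-0.09) did not pass. Of 10 markers of brain regions anterior to the trunk 8 were tested, with 1 higher and 2 lower, and 0 were at 0 in all libraries. These counts stand beside 21.9% higher and 20.0% lower over all genes tested. The summed level of the markers was 1578 to 1713 in loss of function and 1642 to 1732 in controls, with overlap. Of these, EN2 (ENSDARG00000026599) had 27.8 ± 9.89 in loss of function and 123 ± 21.01 in controls and egr2a 22.9 ± 3.57 in loss of function and 107 ± 30.3 in controls (SD, n = 3 each). Engrailed genes are also genes of muscle pioneers in the trunk, so EN2 does not mark head tissue alone. The part of leftover head tissue in the values of Fox and Sox genes was not tested.

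In class FoxI 1 of 2 tested genes fell and in class FoxQ 2 of 2, where 20.0% of all genes tested were lower and 21.9% higher. The gene foxi3a (ENSDARG00000055926), which specifies ionocytes of the zebrafish skin, had 26.9, 38.6 and 32.3 in loss of function trunks, against 57.3, 48.4 and 55.8 in controls (log2 change -0.72, SE 0.21, limma adjusted p = 0.00988). It did not pass without loss of function replicate 1 (adjusted p = 0.0530). Its copy foxi3b had 82.8, 152 and 106 in loss of function trunks, against 155, 105 and 132 in controls, with overlap (log2 change -0.22, 95% interval -0.63 to 0.18, limma adjusted p = 0.366). The gene foxq1b (ENSDARG00000055395) had 91.7, 72.3 and 73.6 in loss of function trunks, against 132, 111 and 119 in controls (log2 change -0.60, SE 0.15, limma adjusted p = 0.00335), and FOXQ1 had 258, 229 and 241 in loss of function trunks, against 296, 281 and 309 in controls (log2 change -0.28, SE 0.09, limma adjusted p = 0.0201). Both pairs of groups were separate. FOXQ1 did not pass without loss of function replicate 2 or 3, or without control replicate 3 (adjusted p from 0.0521 to 0.0995). In the RefSeq annotation of assembly GRCz12tu foxq1b, foxf2b and foxc1b are direct neighbours, and the other two did not pass the test. Of 6 epidermis markers 1, krt8, was higher (0.46) and 0 were lower, and they summed to 913482 to 961066 in loss of function and 762507 to 863189 in controls. Most of this sum came from krt4, with means of 755180 in loss of function and 647665 in controls. The gene krt4 did not pass (limma adjusted p = 0.0877). The part of the epidermis markers was not tested.

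The tested FoxJ and FoxH genes did not pass the test, and foxj1a was not found by symbol. The gene foxj1b, a regulator of motile cilia, had 144, 105 and 154 in loss of function trunks, against 110.2, 102 and 113 in controls (log2 change 0.29, 95% interval -0.02 to 0.60, limma adjusted p = 0.128). It passed without loss of function replicate 2 (adjusted p = 0.0256). The gene foxj2 had 102, 118 and 124 in loss of function trunks, against 149, 137 and 123 in controls (log2 change -0.25, 95% interval -0.53 to 0.03, limma adjusted p = 0.140), the change of foxj3 was -0.01, and that of the Nodal signalling factor foxh1 was 0.04, with 12.96, 13.9 and 25.6 in loss of function trunks, against 20.3, 10.9 and 19.3 in controls. Of 32 planned motile cilia genes 18 were matched to a symbol and 16 tested. Of these 16, 1, SPAG6 (0.28), rose and 1, CFAP45 (-0.66), fell, with a median log2 change of 0.05. Among all genes tested, 21.9% were higher and 20.0% lower. CFAP45 had 212 ± 28.2 in loss of function and 335 ± 10.4 in controls (SD, n = 3 each; limma adjusted p = 8.55e-05).

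FOXM1 (ENSDARG00000003200), which activates genes of mitosis, fell, with 1747, 1708 and 1804 in loss of function trunks, against 2095, 2060.3 and 2076 in controls, means of 1753 ± 48.4 in loss of function and 2077 ± 17.4 in controls (SD, n = 3 each; log2 change -0.25, SE 0.05, limma adjusted p = 9.18e-04). The groups were clearly separate, though the change was small. Over all genes tested, 21.9% were higher and 20.0% lower. Of 20 cell cycle genes around FOXM1, 3 rose, 4 fell and 13 did not pass (median -0.0019). The genes that fell were bub1 (-0.39), TOP2A (-0.33), CCNA2 (-0.24) and cenpe (-0.21). Those that rose were the mitotic kinase gene AURKB (0.81), BIRC5 (0.19), whose product works with Aurora B, and MYBL2 (0.15). AURKB had 4906 ± 84.1 in loss of function and 2800.3 ± 230.4 in controls (SD, n = 3 each; limma adjusted p = 2.19e-08).

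FOXK1 and FOXK2 are broadly expressed factors. FOXK2 (ENSDARG00000030583) fell, with 2697, 2677 and 2665 in loss of function trunks, against 3745, 4113 and 3544 in controls, means of 2679.6 ± 16.6 in loss of function and 3801 ± 288 in controls (SD, n = 3 each; log2 change -0.50, SE 0.06, limma adjusted p = 2.75e-06). The 3 loss of function libraries lay close together, below every control. FOXK2 (ENSDARG00000011609), in contrast, ranged over 2080.3 to 2181 in loss of function and 2054 to 2205 in controls (log2 change -0.00, 95% interval -0.11 to 0.11, limma adjusted p = 0.972), and FOXK1 over 667 to 711 in loss of function and 582 to 707 in controls (log2 change 0.11, 95% interval -0.05 to 0.27, limma adjusted p = 0.277). FOXK1 passed without control replicate 3 (adjusted p = 0.0381). The ratio of the first FOXK2 copy to the second was 1.254, 1.227 and 1.281 in loss of function trunks, against 1.823, 1.899 and 1.607 in controls.

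FoxN genes gave 1 higher and 2 lower of 4 tested, beside 21.9% higher and 20.0% lower over all genes tested. The repressor gene foxn3 (ENSDARG00000012833) had the largest increase of all members, at 83.8, 105 and 68.01 in loss of function trunks, against 59.1, 48.4 and 45.7 in controls (log2 change 0.72, SE 0.19, limma adjusted p = 0.00514). FOXN4, which acts in the choice of V2 interneuron fate in the spinal cord, fell, with 245, 231 and 251 in loss of function trunks, against 269, 318 and 323 in controls (log2 change -0.32, SE 0.10, limma adjusted p = 0.0142). The thymus factor gene foxn1 (ENSDARG00000011879) had 5.98, 6.93 and 6.69 in loss of function trunks, against 13.2, 21.7 and 10.1 in controls (log2 change -1.03, SE 0.37, limma adjusted p = 0.0357). The groups did not overlap in any of these 3, and the values of foxn1 were the lowest. FOXN2 (ENSDARG00000045105) had 260.3, 313 and 282 in loss of function trunks, against 277, 284 and 311 in controls (log2 change -0.03, 95% interval -0.23 to 0.17, limma adjusted p = 0.830). FOXN4 did not pass without loss of function replicate 2 (adjusted p = 0.0680). The gene foxn1 did not pass after quantile normalization, without loss of function replicate 1, 2 or 3, or without control replicate 1 or 2 (adjusted p from 0.0592 to 0.183).

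In class FoxO, foxo3b (ENSDARG00000042904) was higher, with 2005, 1983 and 1941 in loss of function trunks, against 1389, 1358 and 1321 in controls, means of 1976 ± 32.6 in loss of function and 1356 ± 33.9 in controls (SD, n = 3 each; log2 change 0.54, SE 0.05, limma adjusted p = 5.52e-07). Each group held to a narrow range and the groups were far apart. Its copy foxo3a had 1656, 1546 and 1553 in loss of function trunks, against 1586, 1579.8 and 1652 in controls, with overlap (log2 change -0.02, 95% interval -0.13 to 0.09, limma adjusted p = 0.805). The ratio of foxo3a to foxo3b was 0.826, 0.780 and 0.800 in loss of function trunks, against 1.141, 1.164 and 1.250 in controls. FOXO4 fell, with 122, 107 and 94.8 in loss of function trunks, against 131, 135 and 144 in controls (log2 change -0.35, SE 0.13, limma adjusted p = 0.0429). It did not pass without the filter, after quantile normalization, without loss of function replicate 2 or 3, or without control replicate 1, 2 or 3 (adjusted p from 0.0572 to 0.180). FOXO1 had 6.98, 11.9 and 10.03 in loss of function trunks, against 14.1, 10.9 and 18.3 in controls (log2 change -0.53, 95% interval -1.27 to 0.20, limma adjusted p = 0.237), and foxo6b had a log2 change of -0.44 and missed the threshold.

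The list of insulin, Akt and FoxO target genes had 28 tested members, of which 10 rose, 4 fell and 14 did not pass (median 0.09). Across all genes tested, 21.9% were higher and 20.0% lower. The kinase gene sgk1, whose product phosphorylates FoxO proteins in mammals, had 2267 ± 24.97 in loss of function and 1117 ± 64.7 in controls (SD, n = 3 each; log2 change 1.02, limma adjusted p = 1.14e-09). The gene sesn3, a FoxO target in mammals, rose as well (0.64, limma adjusted p = 2.79e-07), as did GADD45A (0.72) and CITED2 (0.30). The muscle ubiquitin ligase genes trim63a (0.21) and trim63b (0.26) rose less. The remaining genes that rose belong to the insulin and Akt part of the list, with log2 changes from 0.13 to 0.69. Among those that did not pass were FBXO32 (-0.07), KLF15 (0.09), CCNG2 (-0.10) and SESN1 (0.09). Any link of the list to the change of foxo3b was not tested. Among the genes that fell were akt3b (-0.71), PDK4 (-0.41) and PDK2 (ENSDARG00000020876, -0.36), of which PDK2 and PDK4 encode kinases that restrain pyruvate dehydrogenase.

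FoxP genes include regulators of motor neuron identity, as FOXP1 is in mouse and chick. The gene foxp1b (ENSDARG00000014181) fell, with 2173, 2235 and 2272 in loss of function trunks, against 3561, 3567 and 3225 in controls, means of 2227 ± 50.2 in loss of function and 3451 ± 196 in controls (SD, n = 3 each; log2 change -0.63, SE 0.05, limma adjusted p = 1.42e-07). Its lowest control value was far above the highest loss of function value. The copy foxp1a had 2097, 2063 and 1980.0 in loss of function trunks, against 2099, 2134 and 2143 in controls, separate by a very small gap (log2 change -0.05, 95% interval -0.16 to 0.05, limma adjusted p = 0.404). The ratio of foxp1b to foxp1a was 1.036, 1.083 and 1.148 in loss of function trunks, against 1.697, 1.671 and 1.505 in controls. FOXP4 had 3364, 3429 and 3521 in loss of function trunks, against 3212, 3813 and 3785 in controls (log2 change -0.06, 95% interval -0.19 to 0.07, limma adjusted p = 0.429), and FOXP2 (-0.30) and foxp3b (-0.35) did not pass the test. FOXP4 passed without control replicate 1 (adjusted p = 0.0271).

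**Figure D3:**
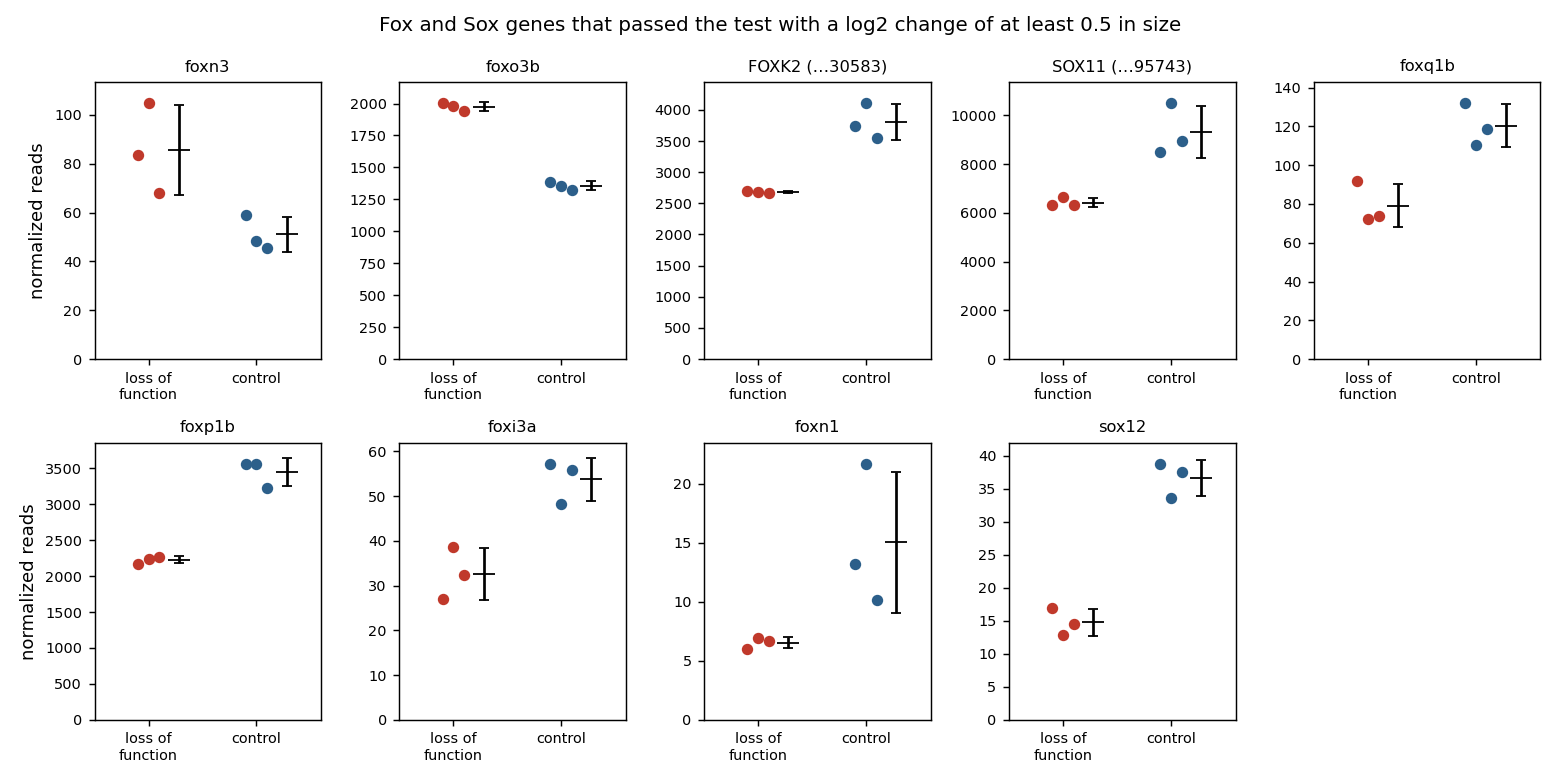
Normalized reads in each library (vertical axes from 0) of the 9 Fox and Sox genes that passed the test with a log2 change of at least 0.5 in size, with loss of function libraries in red and control libraries in blue. Black bars give the mean and SD of 3 libraries. In each of the 9 panels the groups do not overlap, and foxn3 and foxo3b are the ones that were higher.

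Copies of duplicated genes were also compared with each other, within each library, as a ratio of their normalized reads. There were 16 such pairs with both copies tested, from 14 genes. In 9 pairs 1 copy passed the test and the other did not, in 2 both passed (FOXQ1 with foxq1b, and the pair named SOX9), and in 5 neither did. The copy with the lower log2 change was always put on top, so the direction of the ratio was set by that choice. The log2 changes of the copies differed by -0.58 for foxp1b and foxp1a, -0.56 for foxo3a and foxo3b, -0.50 for the FOXK2 pair, -0.49 for foxi3a and foxi3b and -0.43 for the SOX11 pair. In each of these 5, named because their differences were the largest, the ratios of loss of function and control libraries did not overlap. An exact permutation test of the ratio, 2-sided, gave p = 0.10, the smallest that 3 libraries against 3 allow, so no pair could pass a threshold of 0.05 or an adjustment over 16 pairs. The ratios did not overlap in 11 pairs, among them also sox19a with sox19b, where the changes differed by -0.05. How often ratios of other gene pairs do not overlap was not worked out, so this count has no background share. Values of single genes did not overlap for 52.1% of all genes tested. The labels do not say how a read that fits both copies was assigned, and a misassigned read would move the ratio.

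**Figure D4:**
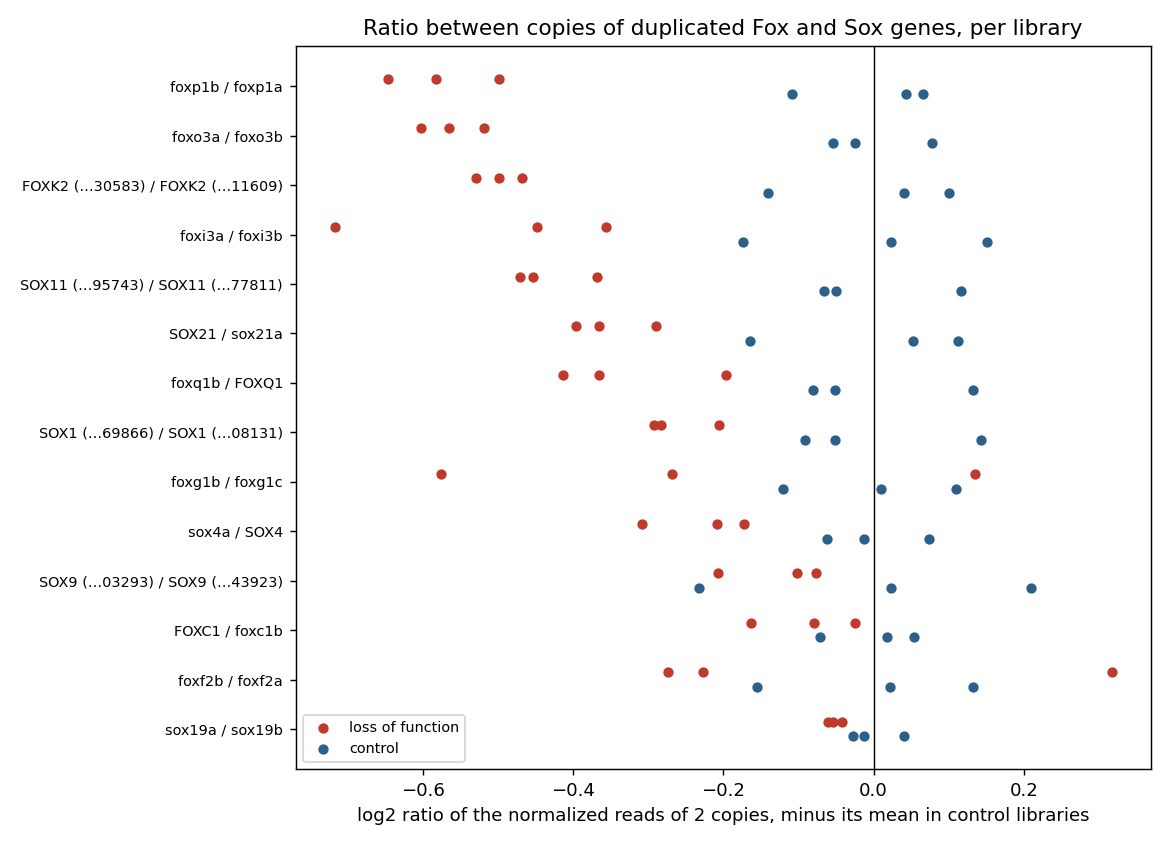
Log2 ratio of the normalized reads of both copies of duplicated Fox and Sox genes in each library, minus the mean of that ratio in control libraries (horizontal axis, no unit), with loss of function libraries in red above control libraries in blue for each of 14 pairs. The pairs run by the difference of their log2 changes, from -0.58 for foxp1b and foxp1a to -0.05 for sox19a and sox19b.

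Members that were not tested were few and rarely sequenced. The remaining 12, all Fox genes, had at most 14.8 normalized reads in any library. They were foxe1, foxe3, foxg1d, foxi2, foxp3a, foxr1, FOXB2, FOXL3, FOXN2 (ENSDARG00000055574), FOXB1 (ENSDARG00000089042) and both genes named FOXL2. These include FOXL2 (ENSDARG00000042180), a gene of the ovary, which had 1.00, 0.99 and 1.11 in loss of function trunks, against 0, 0 and 0 in controls, and FOXL2 (ENSDARG00000068417) had 4.99, 2.97 and 2.23 in loss of function trunks, against 7.93, 2.96 and 11.2 in controls. FOXB1 (ENSDARG00000089042) had 1.99, 2.97 and 1.11 in loss of function trunks, against 0.88, 0.99 and 1.01 in controls. With so few reads these genes were left out by the filter, so no change is given for them. The groups did not overlap for FOXN2 (ENSDARG00000055574), foxp3a, foxi2, FOXL2 (ENSDARG00000042180) and FOXB1 (ENSDARG00000089042), all at low values. No share over other untested genes was worked out. For FOXB1 the lowest loss of function value and each control value stand for 1 read, so only the scaling sets them apart. For foxp3a the nearest values were 6.93 in loss of function and 7.05 in controls. The tested gene foxl1 had 21.9, 23.8 and 28.99 in loss of function trunks, against 18.5, 18.7 and 23.3 in controls (log2 change 0.29, 95% interval -0.26 to 0.83, limma adjusted p = 0.393) and for foxl2l the log2 change was 0.25, short of the threshold.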

How the data were processed

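The authors deposited a normalized signal per gene and per exon. The values and the file names show that it is the gene's reads divided by a single factor for its library. In 4 of the 6 libraries (all 3 controls and loss of function replicate 3) 100% of gene values were whole multiples of 1 step, within 0.001 of a step, and stood for 38804265 to 44084480 reads. The labels' protocols give a lower mean of 27459238 reads passing filter per sample. For loss of function replicates 1 and 2 the step lay so close to 1 that whole reads could not be verified, so no count test is reported. Per the submitters' processing notes the build was Zv9. Those notes name STAR 2.4.0j, Bowtie 0.12.9, DESeq 1.8.3, HTSeq 0.5.3 and SAMtools, with no roles. Per the labels' protocols the libraries did not keep strand, so overlapping antisense genes are not told apart. Exon values were not used here, because the exons could not be paired with genes.

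Symbols were found for 18555 of 24789 gene IDs (74.9%). The planned members foxj1a, foxa, foxa1, sox17 and sox32 were not found by symbol, so classes FoxJ, FoxA and SoxF may be incomplete. Groups came from the sample titles. The series describes biological triplicates, and p-values reflect only how far libraries of a group differ. R 4.3.3 and limma 3.58.1 (eBayes, intensity trend) were run on log2(value + 1), for genes reaching 10 in 3 or more of the 6 libraries. Fold changes are on this scale, which understates changes of low genes. P-values are 2-sided, with Benjamini-Hochberg adjustment over all 18917 genes tested and a threshold of 0.05. The script was tested on simulated data. Alternatives were pseudocounts of 0.5 and 5, no filter, quantile normalization, TMM scaling with edgeR 4.0.16, no trend, a replicate block, and leaving out each library. Ratios of copies were tested with SciPy 1.17.1, and tables and figures were made with Python 3.11.15, pandas 2.3.3 and matplotlib 3.10.9.

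The members and gene lists were chosen with earlier results of these data known. Lists used zebrafish names, matched to a symbol, or to the human name after a final copy letter was dropped. Names without a match were left out, so most lists are incomplete. Matched were 18 of 32 motile cilia names, 18 of 26 endothelial, 4 of 6 leukocyte and 3 of 5 gut and yolk names. Values in every library are given for members past the threshold with a log2 change of at least 0.5 in size, the 10 with the highest mean, the one with the highest mean of each class and a set of tissue regulators. From each list came up to 4 members with the smallest adjusted p, and all where 5 or fewer moved in a direction. Others named here, such as the remaining members past the threshold, HES6, nes, PROX1, EN2, egr2a and krt8, were chosen after their values were seen. Some genes that count in the totals are not reported here.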

Additional observations from a re-analysis of the deposited data

How the results depend on the processing

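Of the 23 members that passed the test, 10 passed in the same direction under all 13 alternatives that were run, 3 of them higher (SOX6, foxn3 and foxo3b) and 7 lower (foxp1b, FOXK2 (ENSDARG00000030583), SOX11 (ENSDARG00000095743), FOXM1, foxq1b, sox12 and sox13). The other 13 kept their direction and lost the call under at least 1 alternative, and 11 of the 44 that did not pass did so under at least 1. Leaving out 1 library gave 3 to 9 higher members and 8 to 16 lower ones, and over all genes 3142 to 4487 higher and 2968 to 3908 lower. The lowest counts of members came without a loss of function library. The planned edgeR and DESeq2 tests on whole reads are not reported, because whole reads could not be verified for loss of function replicates 1 and 2. Without a trend 4 members were higher and 14 lower, beside 3173 and 3055 of all genes. After quantile normalization it was 5 and 16, beside 3854 and 3735. Same-numbered libraries did not deviate together (Pearson's r across genes -0.075, 0.00793 and -0.0216 for numbers 1, 2 and 3). This gave no sign that the numbers pair the samples, but a pairing that affects few genes would not show in it. With the replicate number as a block 6 members were higher and 17 lower, 1 call was lost and that of SOX21 was gained. The median log2 change of all genes was 0.00677 after quantile normalization and 0.00151 after TMM scaling. A change of sign between values that both missed the threshold, which happened 33 times, was not counted as a change. Members with few reads, such as foxn1 and foxl2l, are limited by depth.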
